A study of Bos taurus with 9 samples.

Results

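The genes described here are the amino acid transporters of 7 solute carrier families, read in bovine blastocysts. Members were all symbols of the count table in the families SLC1A, SLC3A, SLC6A, SLC7A, SLC36A, SLC38A and SLC43A, which gave 59 of 22127 genes. The families held 7, 2, 19, 13, 4, 11 and 3 members in that order. The symbol pattern itself uses no measured value, but it was set with earlier results of these data known. The symbol pattern also took in SLC7A6OS, which is not a carrier, and the SLC6 carriers of creatine, taurine, GABA and monoamines.

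The 9 libraries came from pools of 9 to 11 embryos collected on day 8, with 3 libraries for each oocyte maturation medium. Cumulus-oocyte complexes, meaning oocytes still inside their cumulus cells, were matured for 24 h in low glucose with BHB (2.75 mM glucose and 1.8 mM BHB), in low glucose (2.75 mM glucose) or in control medium (5.5 mM glucose). The labels do not spell out BHB, which is read here as beta-hydroxybutyrate, a ketone body. All 3 media were TCM 199 with serum, pyruvate, gentamicin, FSH and estradiol. After that period all embryos were fertilised and cultured alike, and from day 4 their culture medium held non-essential amino acids and glutamine. The media therefore differed before fertilisation only, and the transcripts were read at the blastocyst stage. Nothing in the labels states that the replicates are separate cultures, so a p-value covers no more than the spread among these pools and that spread may be technical.

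Amino acid transporters move amino acids across the plasma membrane and the membranes of organelles. Exchangers swap 1 amino acid for another, whereas carriers coupled to sodium or protons can concentrate their substrates in the cell. Many SLC7 proteins are light chains that work only when joined to a heavy chain, SLC3A2 (also called 4F2hc or CD98) or SLC3A1 (also called rBAT). In mammalian embryos such carriers supply building blocks for protein synthesis, and leucine and arginine that enter through them are sensed by mTORC1, a kinase complex that promotes growth. In mouse blastocysts, uptake of leucine and arginine has been tied to the outgrowth of the trophectoderm, the outer layer that forms placenta.

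Of the 59 members, 52 (88.1%) passed the filter on low counts and were tested, against 74.4% of all genes in the table. SLC6A12, SLC6A13 and SLC6A18 had no count in any library. SLC1A2, SLC1A6, SLC1A7 and SLC6A7 held 5, 8, 40 and 4 counts over all 9 libraries and were also left untested. Levels are in CPM, the counts of a gene scaled to a common library total, after TMM scaling, a correction for library composition. They are not per transcript length, so they rank genes by reads and not by molecules. On this scale 22 members averaged at least 10 CPM, 14 averaged from 1 to 10 CPM, and 16 tested members averaged under 1 CPM.

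A few carriers held most of the reads. SLC7A4 took 28.5% of all member counts, SLC6A8 16.2%, SLC7A5 12.4%, SLC1A1 11.0% and SLC3A2 6.51%, which together made 74.6%. SLC7A4 resembles the cationic transporters in sequence but its transport function is uncertain. SLC6A8 imports creatine, SLC7A5 (LAT1) exchanges large neutral amino acids such as leucine, and SLC1A1 (EAAT3) takes up glutamate, aspartate and cysteine. The members together summed to 5104 ± 346.8 CPM in low glucose with BHB, 4967 ± 217.3 CPM in low glucose and 4586 ± 491.3 CPM in control (SD, n = 3 each). These sums overlapped between the media.

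SLC38A1, which encodes an importer of glutamine, was the 1 carrier that passed the edgeR test, with both low glucose media joined. Its level was lower in blastocysts from oocytes matured with less glucose, and the call was lost when any 1 control library was left out. In edgeR's quasi-likelihood test with both low glucose media joined against control, 1 of 52 members was called at an adjusted p under 0.05, beside 2.87% of all tested genes. SLC7A4, SLC6A8, SLC7A5, SLC1A1 and SLC3A2, the 5 members with the most reads, did not pass. The 95% intervals of these 5 held no change as large as 2-fold. That of SLC7A4, 0.01 to 0.50 on the log2 scale, lay just above 0, and those of the others included 0. DESeq2 called 2 members in that comparison, SLC38A1 and SLC7A14, beside 659 of all 17972 genes it tested. There limma-voom called SLC38A1, beside 540 of 16469 genes. Low glucose alone against control gave 0 called members in edgeR (2.03% of all tested genes). It gave 1 in DESeq2 (beside 581 of 17222 genes) and 1 in limma-voom (beside 346 of 16469), SLC38A1 in both tools. Low glucose with BHB against control gave 0 in edgeR (1.38% of all tested genes). It gave 1 in DESeq2, again SLC38A1 (beside 441 of 16472 genes), and 0 in limma-voom (beside 263 of 16469). The 3 comparisons share the same control libraries.

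At an unadjusted p under 0.05, 7 members passed for both media together (8.70% of all genes), 7 for the medium with BHB (7.32%) and 2 for low glucose alone (7.33%). The median log2 fold change over the tested members was 0.08, 0.11 and 0.04 in the same order, against 0.01, 0.01 and 0.02 over all tested genes. For the 22 members averaging at least 10 CPM, the log2 fold changes lay between -0.20 and 0.48 for both media together. Their 95% intervals stayed within 1 log2 unit of 0 in 21 of the 22, the exception being SLC7A1. For the less abundant members the intervals were wider, and over all 52 members 25 stayed within that bound.

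**Figure D1:**
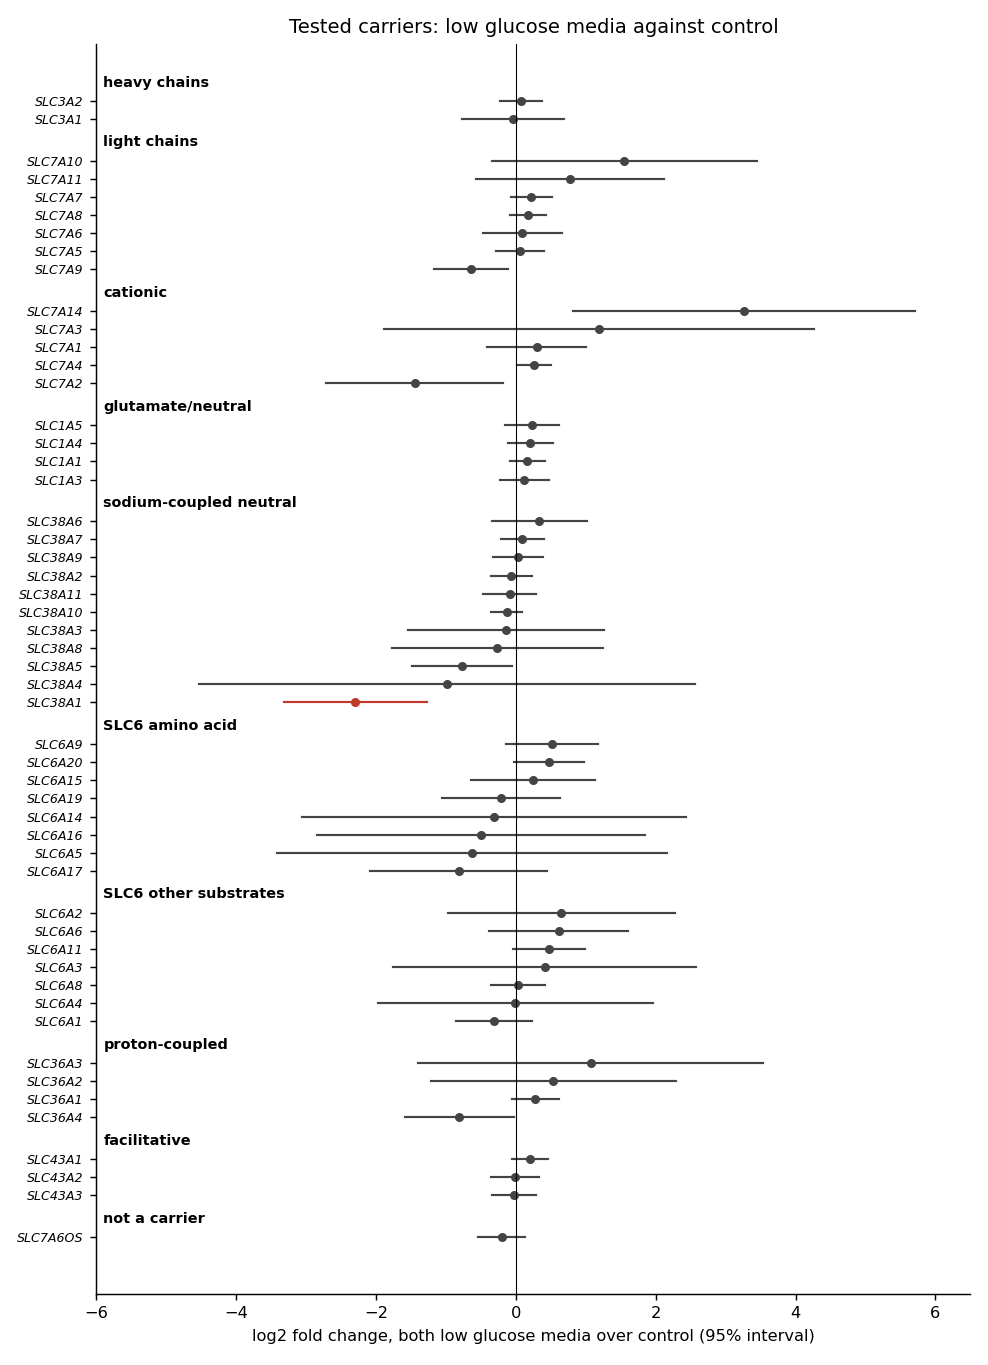
Log2 fold change of each of the 52 tested members, both low glucose media over control, with its 95% interval (x axis), in rows grouped by role. Red marks the 1 member with an adjusted p under 0.05, SLC38A1 at -2.30, and most abundant carriers lie close to 0.

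SLC38A1 (SNAT1), a sodium-coupled importer of glutamine and other small neutral amino acids, was lower in both low glucose media. It held 0.197, 0.729 and 0.455 CPM in low glucose with BHB, 0.199, 0.352 and 0.594 CPM in low glucose, and 1.95, 2.10 and 2.14 CPM in control. All 6 low glucose libraries lay below all 3 control libraries. The underlying counts were 12, 54 and 25 with BHB, 13, 25 and 35 in low glucose, and 116, 151 and 144 in control. Both media together against control gave a log2 fold change of -2.30 (95% interval -3.31 to -1.28, SE 0.467, edgeR adjusted p = 0.0170), which is 4.91-fold lower. Each medium alone gave a change of similar size that missed the threshold, at -2.16 with BHB (SE 0.583, edgeR adjusted p = 0.136) and -2.43 in low glucose (SE 0.591, edgeR adjusted p = 0.0626).

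The call for both media together was lost when any 1 control library was left out, with adjusted p of 0.0543, 0.0738 and 0.0972 without control replicates 1, 2 and 3, while the log2 fold change stayed between -2.33 and -2.25. SLC38A2 (SNAT2), a neighbour of SLC38A1 in the RefSeq annotation of ARS-UCD2.0 and a carrier of overlapping substrates, held 147 ± 26.7 CPM with BHB, 162 ± 26.3 CPM in low glucose and 162 ± 13.4 CPM in control (SD, n = 3 each). Its log2 fold change for both media was -0.07 (95% interval -0.36 to 0.23).

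As a list, markers of cumulus, granulosa and stromal cells moved in the same direction as SLC38A1. Of 24 such markers, all tested, 10 were lower in edgeR for both media together, 8 with BHB and 7 in low glucose, and 0 were higher. Over all tested genes edgeR called 2.87%, 1.38% and 2.03% in either direction, in the same order. The markers had a median log2 fold change of -1.08, -1.17 and -1.13 in these comparisons. Their summed level ran from 410.7 to 613.8 CPM with BHB, 443.3 to 678.1 CPM in low glucose and 962.0 to 1620 CPM in control. Of the defining markers, LUM, DCN and COL3A1 were lower. The other defining markers, CYP19A1, FSHR, FOXL2, AMH and COL1A1, were called by neither DESeq2 nor limma-voom in any comparison. For both media together, the markers that both of these tools called were COL1A2, COL3A1, DCN, LUM, NR5A2, PDGFRB, TAGLN, THY1, VCAN and VIM. The fall of the list therefore does not extend, as calls in these tools, to most of its defining markers. None of the 24 markers was at 0 in all libraries. Of the 24 markers DESeq2 called 11 for both media (beside 659 of 17972 genes) and limma-voom 10 (beside 540 of 16469). Without control replicate 1 edgeR called 7 of them lower (beside 321 of 16824 genes called). The part of these markers in the SLC38A1 result was not tested. In pooled embryos, fewer cells of a type and less RNA per cell cannot be told apart.

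Markers of the blastocyst lineages were present in every medium. Trophectoderm genes summed to 16620 to 20400 CPM with BHB, 16130 to 18710 CPM in low glucose and 13300 to 18270 CPM in control. In edgeR 0 of these 12 genes were called, and DESeq2 called 1, ELF3, for both media (beside 659 of 17972 genes). At most 3 had an unadjusted p under 0.05 in a comparison, in low glucose (25.0%, beside 7.33% of all tested genes). Of 8 hypoblast genes 1 was lower against control, GATA4, beside 2.87% of all tested genes called by edgeR for both media. None of the tested epiblast, blood, sperm and oocyte markers was called by edgeR, DESeq2 or limma-voom, and 1 blood marker had an unadjusted p under 0.05, in low glucose. POU5F1, listed here among the epiblast markers, averaged 1060 ± 35.1 CPM with BHB, 1000 ± 99.2 CPM in low glucose and 954 ± 60.5 CPM in control (SD, n = 3 each). SOX2 and DPPA5 of that list were not found in the count table. Total estimated counts ran from 55611205 to 75178898 per library, and member genes took 0.430% to 0.528% of them.

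**Figure D2:**
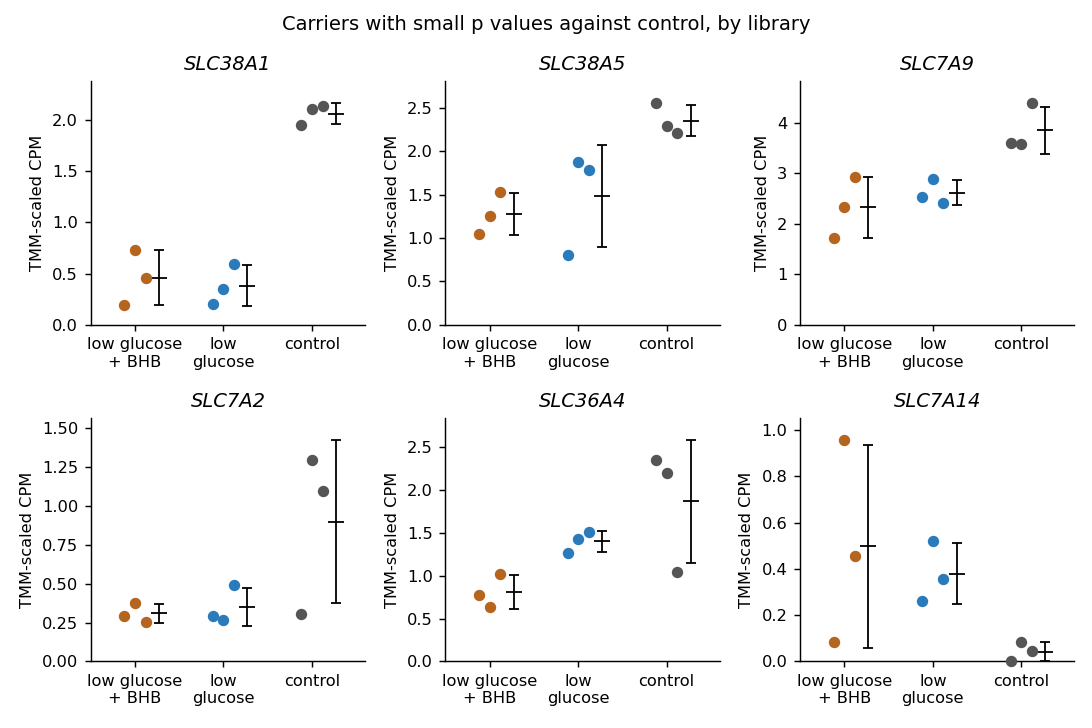
TMM-scaled CPM (y axis) of 6 carriers in each library, by medium, with the mean and SD of 3 libraries as a horizontal mark and bars. SLC38A1, SLC38A5 and SLC7A9 show no overlap between the 6 low glucose libraries and the 3 controls, while SLC7A2, SLC36A4 and SLC7A14 overlap.

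Without overlap between all 6 low glucose libraries and the 3 controls, 3 members were lower, beside 5.56% of all genes, and 0 were higher, beside 1.03%. They were SLC38A1, SLC38A5 and SLC7A9. With BHB alone against control, 4 members were lower and 5 higher without overlap (8.56% and 4.77% of all genes). In the medium without BHB the counts were also 4 and 5 (8.85% and 4.31%).

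The heavy chains differed widely in reads. SLC3A2, the partner of most light chains, averaged 332 ± 11.1 CPM with BHB, 315 ± 54.8 CPM in low glucose and 308 ± 61.9 CPM in control (SD, n = 3 each). Its log2 fold change for both media was 0.07 (95% interval -0.23 to 0.37). SLC3A1, the partner of SLC7A9 in kidney and gut, averaged 1.70 ± 0.579, 2.34 ± 0.224 and 2.05 ± 0.915 CPM in the same order. Neither heavy chain passed the test.

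Among 7 tested light chains none was called. SLC7A5 averaged 620 ± 84.1 CPM with BHB, 608 ± 93.7 CPM in low glucose and 590 ± 138 CPM in control (SD, n = 3 each), and its log2 fold change for both media was 0.06 (95% interval -0.28 to 0.40). SLC7A8 (LAT2), another exchanger of neutral amino acids, averaged 174 ± 15.4, 174 ± 32.1 and 154 ± 4.07 CPM. These were the light chains with the most reads. SLC7A7 (y+LAT1), which exports cationic amino acids in exchange for neutral ones, averaged 60.1 ± 11.2, 61.0 ± 4.15 and 51.9 ± 7.20 CPM, and its relative SLC7A6 (y+LAT2) 9.95 ± 1.14, 9.08 ± 2.39 and 8.95 ± 4.18 CPM. SLC7A11 (xCT), which takes up cystine in exchange for glutamate, was scarce at 0.935 ± 0.348, 0.866 ± 0.305 and 0.525 ± 0.389 CPM.

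SLC7A9, the light chain that takes up cystine and cationic amino acids, had 1.72, 2.32 and 2.93 CPM with BHB, 2.54, 2.88 and 2.41 CPM in low glucose, and 3.60, 3.57 and 4.38 CPM in control. All 3 controls were above all 6 low glucose libraries. The log2 fold change for both media was -0.64 (SE 0.243, edgeR adjusted p = 0.360), which did not pass. SLC7A10 (Asc-1), a carrier of small neutral amino acids including D-serine, averaged 0.545 ± 0.300, 0.402 ± 0.320 and 0.159 ± 0.105 CPM, with a wide interval of -0.35 to 3.44 for both media.

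The cationic group holds the arginine and lysine carriers. SLC7A1 (CAT1), its widely expressed member, had 19.9, 31.3 and 26.1 CPM with BHB, 13.2, 24.6 and 22.0 CPM in low glucose, and 7.51, 26.6 and 21.2 CPM in control. Replicate 1 was the lowest library of each medium, and the log2 fold change for both media was 0.30 (95% interval -0.42 to 1.01). SLC7A2 (CAT2) had 0.295, 0.378 and 0.255 CPM with BHB, 0.290, 0.267 and 0.492 CPM in low glucose, and 0.302, 1.30 and 1.10 CPM in control. Control replicates 2 and 3 were high and control replicate 1 lay among the low glucose libraries, with -1.45 as the log2 fold change for both media (SE 0.581, edgeR adjusted p = 0.424).

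SLC7A4 had 1299, 1717 and 1384 CPM with BHB, 1549, 1403 and 1431 CPM in low glucose, and 1071, 1270 and 1338 CPM in control. The low glucose libraries lay above all controls, and those with BHB overlapped them. For both media the log2 fold change was 0.26 (SE 0.111, edgeR adjusted p = 0.518). SLC7A14, a lysosomal member of the group, had 0.0820, 0.958 and 0.455 CPM with BHB, 0.260, 0.521 and 0.356 CPM in low glucose, and 0.00, 0.0836 and 0.0446 CPM in control. The libraries of low glucose alone were above every control, and 1 library with BHB lay just under the highest control. The log2 fold change for both media was 3.26 (SE 1.12, edgeR adjusted p = 0.257), whereas DESeq2 gave 3.33 with an adjusted p of 0.0332, and it rests on few counts. SLC7A3, a further arginine carrier, stayed between 0.00 and 0.797 CPM in all libraries.

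Of the SLC1 family, 4 members were tested and none was called. SLC1A1 averaged 542 ± 19.3 CPM with BHB, 568 ± 111 CPM in low glucose and 495 ± 17.3 CPM in control (SD, n = 3 each), at a log2 fold change of 0.16 for both media (95% interval -0.08 to 0.41). SLC1A5 (ASCT2), a neutral exchanger that carries glutamine, averaged 130 ± 26.9, 114 ± 16.9 and 104 ± 27.5 CPM. SLC1A4 (ASCT1), an exchanger of alanine, serine and cysteine, had 86.2, 97.6 and 103 CPM with BHB, 59.4, 83.7 and 83.4 CPM in low glucose, and 59.0, 85.9 and 75.5 CPM in control. The libraries with BHB lay above all others, by a small margin over the highest control. Against control the log2 fold change with BHB was 0.38 (SE 0.167, edgeR adjusted p = 0.643).

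SLC1A3 (EAAT1), a glutamate and aspartate importer, had 34.1, 42.4 and 50.4 CPM with BHB, 63.4, 47.1 and 44.3 CPM in low glucose, and 40.8, 51.4 and 37.0 CPM in control. The 3 media overlapped.

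Of the 11 sodium-coupled neutral transporters of the SLC38 family, all tested, 1 was lower and 8 had a negative log2 fold change for both media, with a median of -0.13. SLC38A5 (SNAT5), which carries glutamine, histidine, serine and glycine, had 1.05, 1.25 and 1.53 CPM with BHB, 0.809, 1.87 and 1.78 CPM in low glucose, and 2.55, 2.29 and 2.21 CPM in control. The controls stood above all other libraries, and the log2 fold change for both media was -0.77 (SE 0.328, edgeR adjusted p = 0.493). SLC38A10, an intracellular member, had 83.4, 92.1 and 73.4 CPM with BHB, 63.7, 72.9 and 72.8 CPM in low glucose, and 78.0, 84.8 and 87.6 CPM in control. Low glucose was below both other media, and did not pass against control (log2 fold change -0.26, SE 0.120, edgeR adjusted p = 0.693).

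SLC38A7, a lysosomal exporter of glutamine and asparagine, averaged 48.8 ± 2.79 CPM with BHB, 43.4 ± 6.93 CPM in low glucose and 43.1 ± 8.44 CPM in control (SD, n = 3 each). SLC38A9, the lysosomal arginine sensor of mTORC1, had 29.7, 46.3 and 40.5 CPM with BHB, 37.0, 42.0 and 28.9 CPM in low glucose, and 30.5, 39.0 and 40.4 CPM in control, with overlap between all media. For both media SLC38A7 and SLC38A9 gave log2 fold changes of 0.09 and 0.03. SLC38A3 (SNAT3), a glutamine carrier of liver and kidney, averaged 0.597 ± 0.165, 0.529 ± 0.118 and 0.618 ± 0.448 CPM. SLC38A4 was scarce, with at most 0.404 CPM in a library. SLC38A6, SLC38A8 and SLC38A11 did not pass either.

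**Figure D3:**
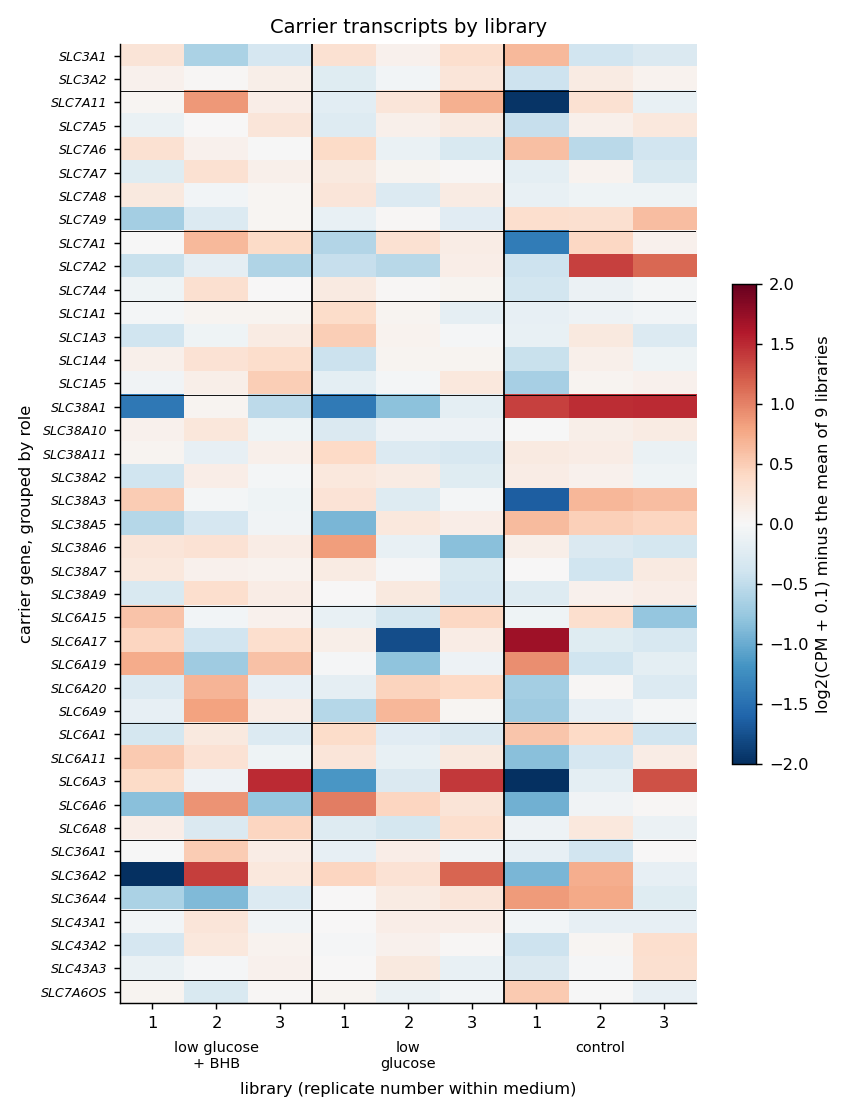
Colour shows log2(CPM + 0.1) minus the mean of the 9 libraries, capped at 2 in either direction, for the 41 members averaging at least 0.5 CPM (rows, grouped by role) in each library (columns, by medium). SLC38A1 separates the control libraries from the rest, and control replicate 1 is low for several carriers.

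None of the 8 tested SLC6 amino acid carriers was called. SLC6A20 (SIT1), an importer of proline and related imino acids, had 100, 193 and 108 CPM with BHB, 106, 164 and 159 CPM in low glucose, and 75.0, 123 and 100 CPM in control. The media overlapped, and low glucose against control gave 0.53 on the log2 scale (SE 0.260, edgeR adjusted p = 0.767). SLC6A9 (GLYT1), the glycine importer that mouse embryos use to control cell volume, averaged 8.83 ± 3.17 CPM with BHB, 7.75 ± 3.32 CPM in low glucose and 5.78 ± 1.35 CPM in control (SD, n = 3 each). SLC6A19, a neutral importer of gut and kidney, averaged 4.22 ± 1.95, 2.75 ± 0.776 and 3.95 ± 2.17 CPM. SLC6A14, which carries neutral and cationic amino acids, averaged 0.198 ± 0.147, 0.187 ± 0.323 and 0.238 ± 0.0145 CPM.

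The 7 tested SLC6 carriers of other substrates also gave no call. SLC6A8 averaged 857 ± 207 CPM with BHB, 759 ± 210 CPM in low glucose and 793 ± 105 CPM in control (SD, n = 3 each), and its log2 fold change for both media was 0.02 (95% interval -0.36 to 0.41). SLC6A6 (TauT), the taurine importer, averaged 1.81 ± 1.42, 2.80 ± 0.852 and 1.48 ± 0.526 CPM. The low glucose libraries lay above the controls without overlap, and their log2 fold change against control was 0.92 (SE 0.518, edgeR adjusted p = 0.892). SLC6A3, the dopamine carrier, ran from 0.00 to 1.60 CPM within control alone.

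Of the SLC36 carriers, all 4 were tested and none was called. SLC36A1 (PAT1), which exports small amino acids from lysosomes, had 16.3, 23.4 and 18.3 CPM with BHB, 14.7, 17.9 and 15.6 CPM in low glucose, and 14.6, 12.5 and 16.4 CPM in control. The lowest library with BHB lay just under the highest control, and with BHB the log2 fold change against control was 0.41 (SE 0.179, edgeR adjusted p = 0.631). SLC36A4 (PAT4), a carrier of proline and tryptophan, had 0.771, 0.634 and 1.02 CPM with BHB, 1.27, 1.42 and 1.51 CPM in low glucose, and 2.35, 2.20 and 1.04 CPM in control. The libraries with BHB were below all others, control replicate 3 by a narrow margin. Against control the log2 fold change with BHB was -1.21 (SE 0.430, edgeR adjusted p = 0.394), and some reads of this gene were shared with other transcripts by estimation. SLC36A2 ranged from 0.0328 to 2.96 CPM within BHB.

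The facilitative SLC43 carriers let amino acids pass down their gradient. SLC43A1 (LAT3) averaged 30.7 ± 3.81 CPM with BHB, 31.7 ± 1.69 CPM in low glucose and 27.1 ± 1.18 CPM in control (SD, n = 3 each). SLC43A2 (LAT4) averaged 116 ± 21.7, 119 ± 4.18 and 118 ± 30.1 CPM. SLC43A3, which carries purine bases, averaged 27.6 ± 2.16, 28.5 ± 3.34 and 28.6 ± 6.09 CPM. None passed, and for both media their log2 fold changes were 0.20, -0.01 and -0.03. SLC7A6OS, related to a yeast factor for the nuclear import of RNA polymerase and a neighbour of SLC7A6 in RefSeq, averaged 32.1 ± 4.30 CPM with BHB, 32.8 ± 2.09 CPM in low glucose and 37.4 ± 9.64 CPM in control. The strand setting of the counting is not given in the sources used here. Both genes of the pair held whole values in every library, and whether they shared reads was not tested.

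Low glucose with BHB was also set against low glucose, which asks whether the ketone body moved the carriers at the same glucose level. In edgeR 0 of 52 members were called, 0 had an unadjusted p under 0.05, and DESeq2 and limma-voom called 0. Of all tested genes edgeR called 0.00%, and 1.64% had an unadjusted p under 0.05 in that fit. DESeq2 called 2 of 19473 genes and limma-voom 0. The median log2 fold change of the members was 0.05, against 0.01 over all genes. Of the 22 members averaging at least 10 CPM, 21 had 95% intervals within 1 log2 unit of 0, again with SLC7A1 outside (log2 fold change 0.37, 95% interval -0.44 to 1.19), and their log2 fold changes ran from -0.29 to 0.37.

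Without overlap, 2 members were higher with BHB than in low glucose, SLC1A4 and SLC38A10, and 1 was lower, SLC36A4 (2.96% and 2.54% of all genes). Their log2 fold changes were 0.34 (SE 0.167), 0.25 (SE 0.120) and -0.79 (SE 0.428). SLC38A1 differed by 0.28 (95% interval -0.98 to 1.54), and that interval holds no difference as well as differences above 1 log2 unit.

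Replicate 1 was lower than replicates 2 and 3 for several carriers, in every medium. For 11 of 52 members (21.2%, beside 8.00% of all tested genes) replicate 1 was the lowest library of all 3 media. They were SLC1A4, SLC1A5, SLC6A2, SLC6A9, SLC6A20, SLC7A1, SLC7A5, SLC7A11, SLC7A14, SLC38A1 and SLC43A2. For 4 members (beside 7.61% of all genes) it was the highest in each, SLC6A19, SLC7A6, SLC7A6OS and SLC7A10. Control replicate 1 was the lowest of all 9 libraries for 17 members, or 32.7%, beside 19.7% of all genes. This pattern was looked for after the values were seen, and the labels do not say what a replicate number stands for.

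**Figure D4:**
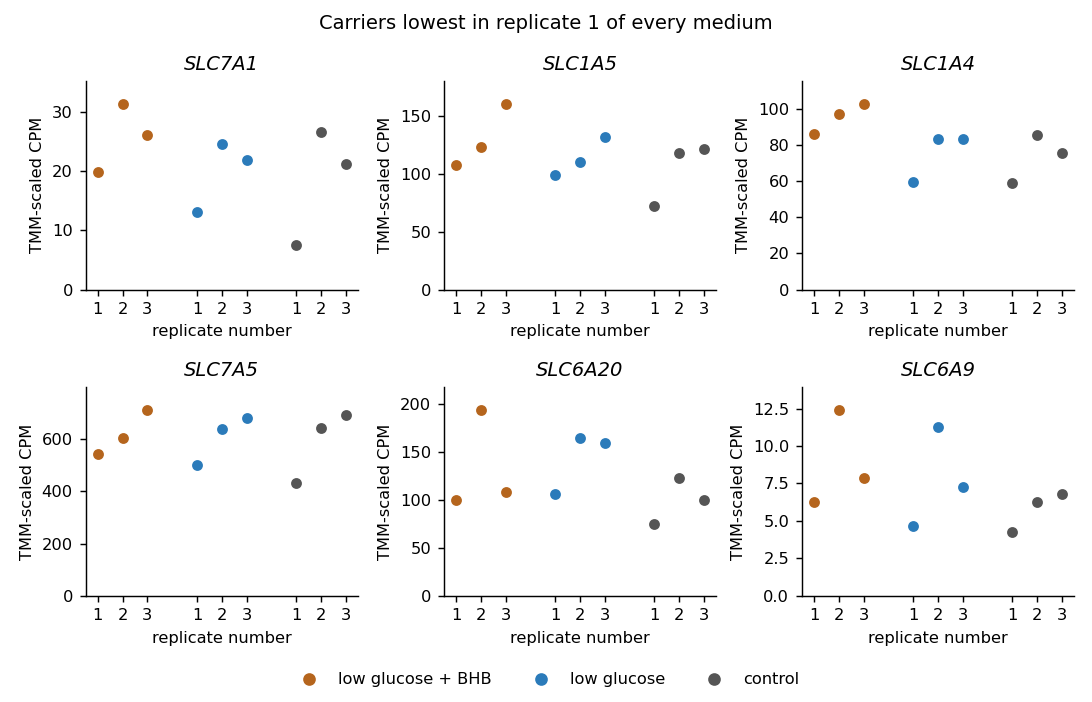
TMM-scaled CPM (y axis) of 6 of the 11 members lowest in replicate 1 of every medium, by replicate number (x axis) and medium (colour). Control replicate 1 is the lowest of the 9 libraries for all 6, SLC7A1 standing at 7.51 CPM there.

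Over the 9 libraries the coefficient of variation of the 22 members averaging at least 10 CPM ran from 10.1% for SLC43A1 to 33.9% for SLC7A1, with a median of 15.7%. Over the 8544 tested genes at that level the median was 12.5%. With replicates 2 and 3 alone, a setting added after the data were seen, SLC38A1 had for both media a log2 fold change of -2.00 and its edgeR adjusted p was 0.0700.

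Genes that work beside the carriers were counted in the same fits. Of 20 tested amino acid transport genes of other families, edgeR called 1 lower for both media together, beside 2.87% of all tested genes. This was SFXN3, a mitochondrial sideroflexin of the family that carries serine. It had 0.541, 1.05 and 0.382 CPM with BHB, 0.504, 0.479 and 0.187 CPM in low glucose, and 2.65, 1.42 and 2.69 CPM in control. All low glucose libraries lay below the controls. The log2 fold change for both media was -2.14 (SE 0.451, edgeR adjusted p = 0.0206), with BHB -1.77 (SE 0.554, edgeR adjusted p = 0.258), and for low glucose -2.52 (SE 0.573, edgeR adjusted p = 0.0433). The call for both media was lost without control replicate 1 (adjusted p = 0.106), control replicate 3 (0.141) or BHB replicate 3 (0.0519), and the call for low glucose without any 1 of the control or low glucose libraries. The list's median for both media was 0.03, and limma-voom called SFXN3 for both media but not for low glucose (adjusted p = 0.0818). DESeq2 called SFXN3 in both of these comparisons and also SLC25A12, a mitochondrial exchanger of aspartate and glutamate.

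Of 40 tested genes of amino acid sensing for mTORC1, edgeR called 0 in any comparison. At an unadjusted p under 0.05 there were 3 for both media (7.5%), 1 with BHB (2.5%), 2 in low glucose (5.0%) and 0 for BHB over low glucose. Over all tested genes these shares were 8.70%, 7.32%, 7.33% and 1.64%. The median of the 40 genes for both media was 0.05, and DESeq2 and limma-voom called 0 of them. Of 28 tested genes of glutamine, glutamate and cystine use edgeR, DESeq2 and limma-voom also called 0. At an unadjusted p under 0.05 there were 1 for both media, 1 with BHB, 0 in low glucose and 1 for BHB over low glucose. Each count of 1 was 3.57% of this list, and its median for both media was 0.04.

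A list of 29 tested genes held the ATF4 program and genes of related stress responses, among them EIF2AK4, XBP1 and HERPUD1. Cells use the ATF4 program when amino acids run short, and its known targets include carriers. Of these 29 genes edgeR called 0 in any comparison. At an unadjusted p under 0.05 there were 5 for both media (17.2%, beside 8.70% of all tested genes) and 4 with BHB (13.8%, beside 7.32%). In low glucose there was 1 (3.45%, beside 7.33%), and for BHB over low glucose 0 (beside 1.64%). DESeq2 called 1, VLDLR, for both media and for low glucose, and limma-voom called 0. The list's median log2 fold change was 0.23 for both media, 0.26 with BHB, 0.14 in low glucose and 0.18 for BHB over low glucose. Over all tested genes the medians were 0.01, 0.01, 0.02 and 0.01 in the same order. ATF4 itself averaged 452 ± 53.7 CPM with BHB, 446 ± 71.8 CPM in low glucose and 364 ± 61.2 CPM in control (SD, n = 3 each), and its log2 fold change for both media was 0.30 (SE 0.138, edgeR adjusted p = 0.558). Control replicate 1 held the least, 293 CPM. For 5 of the 29 genes replicate 1 was the lowest library of its medium in all 3 media, beside 8.00% of all tested genes.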

How the data were processed

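Poly(A)-selected RNA went into NEBNext Ultra II libraries, per the labels' protocols. The authors deposited 1 table of estimated counts per gene, of which 19.2% of values are not whole. fastp, kallisto and DESeq2 and the build bosTau9 are named, per the submitters' processing notes. Versions, the role of each tool, annotation and strand setting: not given in the sources used here. Estimation splits reads between similar transcripts, and SLC1A5, SLC3A1, SLC6A2, SLC6A9, SLC7A7, SLC36A3, SLC36A4 and SLC43A2 hold values that are not whole in 6 or more libraries, and SLC6A8, SLC6A19, SLC6A20, SLC7A4 and SLC7A10 in 2 or 3.

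The rounded counts went into edgeR 4.0.16 (R 4.3.3). filterByExpr (minimum count 10, minimum total 15) kept 16469 genes, TMM factors scaled the libraries, and 1 quasi-likelihood fit of all 9 libraries gave 4 two-sided comparisons, adjusted by Benjamini-Hochberg over all tested genes with a threshold of 0.05. Each SE is the absolute log2 fold change divided by the square root of the test's F statistic, and intervals are symmetric about the change. Both therefore restate the unadjusted p of that test. DESeq2 1.42.0, limma-voom (limma 3.58.1), other scalings and filters, a replicate block and the removal of each library were alternatives. Figures were drawn with matplotlib 3.10.9. All 59 members matched RefSeq symbols of the assembly ARS-UCD2.0, 58 also by gene ID, and that annotation served for names and neighbours alone. The steps were tested on simulated data. Groups came from the titles, and no replicates agreed within sampling noise. Members and lists were chosen with earlier results of these data known. Named with every library's value were called members and the 5 of smallest p per comparison, and carriers of known role were named whatever their values.

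Deviations from the group means of samples with the same replicate number correlated at 0.115, 0.243 and 0.102 between the low glucose media. Samples with different numbers correlated at -0.174 to 0.0390 there. These correlations are weak and the labels give no pairing, so whether the numbers pair those samples is not settled. The main fit treated the samples as unpaired.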

Additional observations from a re-analysis of the deposited data

How the results depend on the processing

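The count of called members for low glucose against control was 0 and became 1, SLC38A1, under DESeq2, limma-voom, scaling by library totals alone, a mean count of at least 50, a fit of only the libraries compared, and the replicate block (log2 fold change -2.57, edgeR adjusted p = 0.0405), and leaving out 1 library gave 0 to 1. For low glucose with BHB against control it was 0 and became 1 under DESeq2. For both media it was 1 and became 2 under DESeq2 and 0 with replicates 2 and 3 only, and leaving out 1 library gave 0 to 1. The counts for BHB over low glucose stayed at 0, also with the replicate block. Against control, same-numbered samples correlated at 0.042 to 0.144, not over 0.1 in each pair, and not every sample correlated best with its own number. The causes were not tested.

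The log2 fold change of SLC38A1 ran from -2.55 to -2.11 for both media, -2.66 to -1.79 with BHB and -2.90 to -2.11 in low glucose when 1 library was left out, and from -0.23 to 0.74 for BHB over low glucose. Of 2396 values of named members under alternatives, 2382 kept their side of the threshold, 190 of these changing sign without a call. A call was lost by 4 values and gained by 10, and 0 called values reversed. In the main fit the only call was SLC38A1 for both media, and all 4 losses were of that call. Nearly all other values were uncalled from the start, so the total says little about how stable that call is. The intervals of members under 1 CPM span more than 1 log2 unit, and the parts of read depth and of spread between pools were not tested.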
